A study of Ovis aries with 9 samples.

Results

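The organic ion and ABC transporter genes of the sheep hepatocyte were chosen by symbol, as every gene of the count table named as an SLC22A or SLCO family member or as a numbered ABCA, ABCB, ABCC or ABCG gene, apart from SLC22A5, ABCB11, ABCG5 and ABCG8. The patterns matched 59 genes, of which 4 were left out, so that 55 genes of the 28837 named in the table were members, and 53 of them are reported. Of these, 27 reached 1 CPM (reads of a gene per 1e6 reads, on library totals adjusted by the trimmed mean of M-values, TMM) in at least 1 stage and are described below. They comprised 10 of 25 uptake genes, 9 of 11 genes that export across the cell membrane, 5 of 11 lipid transporter genes and 3 of 4 genes of organelle membranes, while 0 of 2 channel regulator genes reached that level. The sorting into these classes followed what the proteins are known for, mainly in human, mouse and rat. Several human liver transporters, among them ABCB4, ABCC4, SLCO1B1 and SLCO1B3, were not analysed here.

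The cells were hepatocytes from livers of slaughtered female sheep (Ovis aries), kept in cold storage solution and freed with collagenase. Single cells were picked by hand, and each received its own Smart-seq3xpress library, a plate-based full-length method. The 9 samples were 1 virgin sample, 6 of gestation (days 40 to 50, 50 to 70, 70 to 80, 90 to 100, 100 to 120 and 140 to 150) and 2 of lactation (days 7 and 15 after birth). Neither breed, age nor number of animals per sample is given in the sources used here, and each stage was 1 sample, so the spread within a phase is a spread between stages. The virgin sample has no second sample and was assumed in the fits to vary like the others. The samples held 246 to 553 cells and 114865665 to 272944124 reads, for 3404 cells in all, and no cell name occurred in more than 1 sample.

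Hepatocytes take up organic ions from blood at their sinusoidal face, mainly through facilitative carriers of the SLC22 (organic cation and anion transporters) and SLCO (organic anion transporting polypeptides) families. ATP-binding cassette (ABC) pumps then move conjugates, drugs and lipids out, across the canalicular face into bile or back across the sinusoidal face into blood. The liver clears steroid hormones, bilirubin, drugs and plant toxins by this route, and some of the same pumps work in kidney, gut and mammary gland.

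The hepatocyte label fitted its markers in all 9 samples, since all 14 hepatocyte markers with a row were at 1 CPM or more. Their summed level was 110320 and 85095 CPM on lactation days 7 and 15, 166617 to 217707 CPM in gestation and 173509 CPM in the virgin sample. The 4 neutrophil markers with a row summed to 12.9 and 8.13 CPM on lactation days 7 and 15, 1.05 to 2.78 CPM in gestation and 4.36 CPM in the virgin sample, and 2 of the 4 were at 1 CPM or more in each lactation sample. The 6 bile duct markers summed to at most 3.96 CPM and the 9 endothelial markers to at most 13.7 CPM in any sample, and CD68 had 0 reads throughout. Stellate cell, macrophage and lymphocyte markers summed to 2.93 to 25.5 CPM, 4.88 to 41.9 CPM and 3.72 to 51.5 CPM without separating the phases. The part of such cells in a transporter's level was not tested, apart from values without the 351 cells that had reads of PTPRC, the pan-leukocyte gene CD45. In summed libraries, fewer cells of a kind and less RNA per cell cannot be told apart. Among these markers, ALB (albumin) was at 48041.6 and 32002.8 CPM on lactation days 7 and 15. It was at 91398.5 to 113348.3 CPM in gestation and 80628.2 CPM in the virgin sample. HNF4A, 1 of the 14 hepatocyte markers, was not lower, at 118.7 and 130.7 CPM on lactation days 7 and 15. It was at 84.2 to 121.1 CPM in gestation and 94.9 CPM in the virgin sample. Counted by cell, HNF4A had reads in 98.0% and 99.3% of cells on lactation days 7 and 15. In the gestation and virgin samples the share was 97.3% to 99.8%. The cause of the lower marker sum was not tested.

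**Figure D1:**
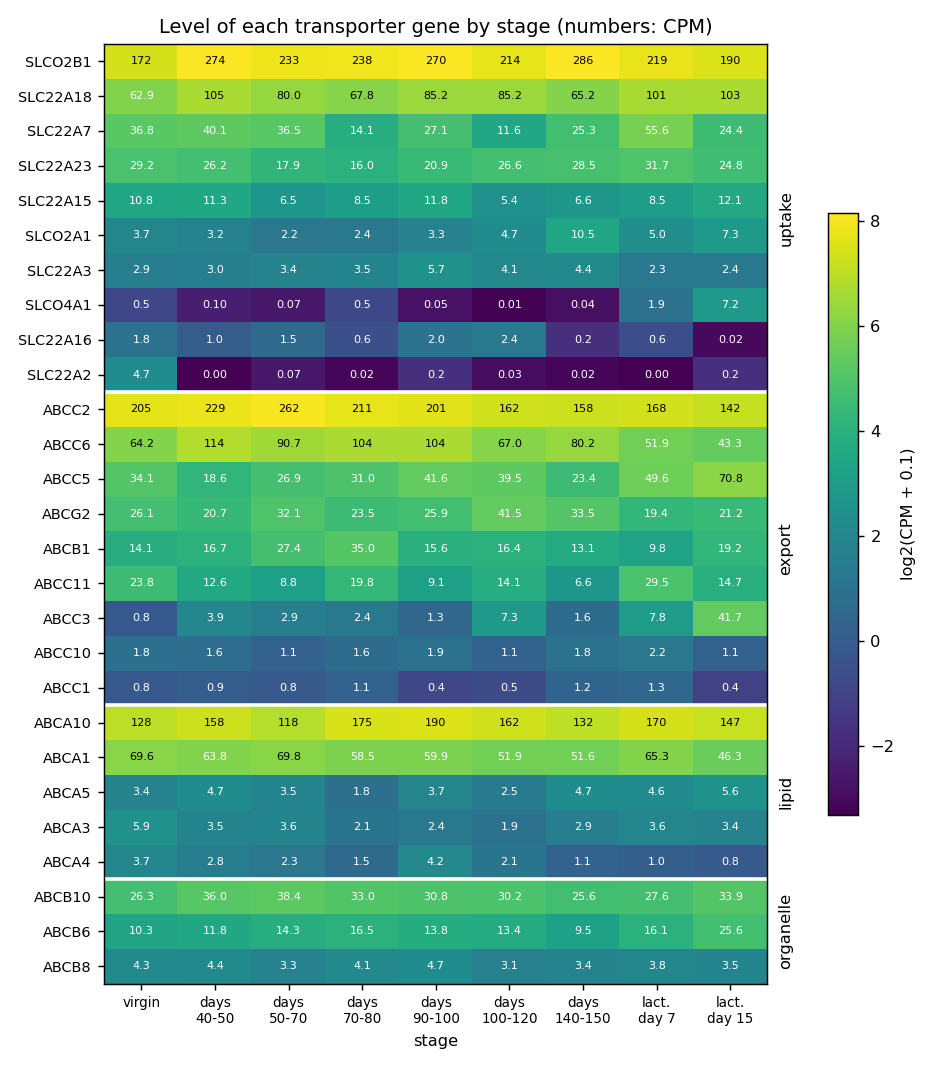
Level of each of the 27 transporter genes (rows) in each of the 9 stages (columns, virgin first, then gestation and lactation in order). Numbers are CPM and the colour is log2(CPM + 0.1); white lines separate uptake, export, lipid and organelle genes. ABCC2 and SLCO2B1 are among the highest throughout, and ABCC3 and SLCO4A1 are highest on lactation day 15.

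Among the uptake genes, SLCO2B1 (OATP2B1), a carrier of sulfated steroids such as estrone sulfate, was read in nearly every cell. It stood at 172 CPM in the virgin sample, at 274, 233, 238, 269.7, 214 and 286 CPM over the 6 gestation stages in order, and at 219 and 190.1 CPM on lactation days 7 and 15. The virgin sample was the lowest of the 9, and the last gestation stage was the highest. Reads were found in 99.1% to 100% of cells of every stage, after each cell had been thinned to 155164 reads so that depth was equal, which kept 3063 cells and left out 13 to 58 cells a sample. The gestation samples averaged 252 ± 27.9 CPM (SD, n = 6) against 172 CPM in the virgin sample. The log2 difference was 0.55 (SE 0.24; quasi-likelihood F-test of edgeR, Benjamini-Hochberg adjusted p = 1), which did not pass. Its median level per length was 42.0 CPM per kilobase of the authors' gene length, against 59.9 for SLC22A18, the shorter gene of the pair.

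SLC22A18, a little studied family member that is imprinted in human and mouse, had its levels at 62.9 (virgin), 105, 80.0, 67.8, 85.2, 85.2 and 65.2 (gestation, early to late) and 101 and 103 (lactation days 7 and 15) CPM. Both lactation samples stood near the top of the gestation range, and the virgin sample was again the lowest, although with library size alone in place of TMM it was not. SLC22A7 (OAT2), an organic anion carrier of the sinusoidal membrane, was more uneven, at 36.8 CPM in the virgin sample, at 40.1, 36.5, 14.1, 27.1, 11.6 and 25.3 CPM over the 6 gestation stages in order, and at 55.6 and 24.4 CPM on lactation days 7 and 15. Its lowest levels, at days 70 to 80 and days 100 to 120, came with the smallest shares of thinned cells with reads, 53.5% and 30.6%, against 64.5% to 84.0% in the other 7 samples. Lactation day 7 lay above the gestation range and day 15 inside it.

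Among the less abundant uptake genes, SLC22A23, an orphan carrier, was at 29.2 CPM in the virgin sample, at 26.2, 17.9, 16.0, 20.9, 26.6 and 28.5 CPM over the 6 gestation stages in order, and at 31.7 and 24.8 CPM on lactation days 7 and 15. SLC22A15, a carrier of zwitterions such as ergothioneine, ran at 10.8 (virgin), 11.3, 6.46, 8.49, 11.8, 5.42 and 6.63 (gestation, early to late) and 8.53 and 12.1 (lactation days 7 and 15) CPM. Neither separated the phases. At days 90 to 100, 41.4% of all SLC22A15 reads came from 1 cell, and in the virgin sample 16.9% did.

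SLCO2A1, the prostaglandin transporter that takes up prostaglandins for breakdown, was highest at the end of gestation. Its level stood at 3.71 CPM in the virgin sample, at 3.25, 2.25, 2.35, 3.32, 4.69 and 10.5 CPM over the 6 gestation stages in order, and at 5.02 and 7.27 CPM on lactation days 7 and 15. The days 140 to 150 sample lay above all others, and the other 5 gestation samples were between 2.25 and 4.69 CPM. Thinned cells with reads made up 20.6% of virgin cells, 11.3%, 10.7%, 16.9%, 12.7%, 10.3% and 34.8% of cells over the 6 gestation stages, and 24.4% and 30.5% of cells on lactation days 7 and 15. Over gestation the slope was 1.90 log2 units per 100 days (SE 0.46; edgeR adjusted p = 0.343), which did not pass, and without days 140 to 150 it was 0.97 (adjusted p = 0.859). The endothelial markers, a cell type known for this gene in other tissues, summed to 10.7 CPM at days 140 to 150 and to 4.62 to 10.1 CPM in the other gestation samples, and their part in the result was not tested.

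SLC22A3 (OCT3), an organic cation and monoamine carrier, was an uptake gene whose lactation samples lay below every gestation sample. It stood at 2.87 CPM in the virgin sample, at 3.03, 3.42, 3.49, 5.69, 4.13 and 4.36 CPM over the 6 gestation stages in order, and at 2.29 and 2.42 CPM on lactation days 7 and 15. The means were 2.35 ± 0.0905 CPM in lactation (SD, n = 2) and 4.02 ± 0.954 CPM in gestation (SD, n = 6), and the virgin sample fell between. The log2 difference was -0.77 (SE 0.30; edgeR adjusted p = 0.444), which did not pass.

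SLCO4A1 (OATP4A1), a carrier of thyroid hormones and estrone sulfate, was read at 0.462 CPM at most in the virgin and gestation samples and higher in lactation. It stood at 0.451 CPM in the virgin sample, at 0.0963, 0.0690, 0.462, 0.0494, 0.00627 and 0.0401 CPM over the 6 gestation stages in order, and at 1.85 and 7.24 CPM on lactation days 7 and 15. Both lactation samples were above all others, and the gestation samples at days 100 to 120 and 140 to 150 rested on 1 and 8 reads. Thinned cells with reads made up 2.29% of virgin cells, 0.377%, 0.794%, 2.82%, 1.13%, 0% and 0% of cells over the 6 gestation stages, and 7.56% and 31.5% of cells on lactation days 7 and 15. A count of 0 among 340 cells at days 100 to 120 and among 437 cells at days 140 to 150 allows shares of up to 0.882% and 0.686% by the limit of 3 counts, and the upper Clopper-Pearson bounds are 1.08% and 0.841%. Lactation was 5.25 above gestation on the log2 scale (SE 1.03), which edgeR did not call (adjusted p = 0.118) and DESeq2 did (adjusted p = 0.000228). Days 70 to 80, where 54.2% of the reads came from 1 cell, gave the highest value when left out, 6.46, and without lactation day 15 it was 3.95 (edgeR adjusted p = 0.0541 and 0.427).

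The remaining uptake genes were SLC22A16, a carnitine carrier known from human testis, at 0.0232 to 2.40 CPM, and SLC22A2 (OCT2), an organic cation carrier of the kidney, singled out here after its values were seen. The 8 gestation and lactation samples had 0 to 0.196 CPM of SLC22A2, with 0 reads at days 40 to 50 and on lactation day 7, against 4.68 CPM for the virgin sample. Reads were found in 0% to 1.97% of thinned cells of those 8 samples, and in 77 of 481 virgin cells (16.0%, 95% Clopper-Pearson interval 12.8% to 19.6%). The virgin cell with most reads held 5.86% of them. The log2 difference between gestation and virgin was -6.39 (SE 1.43). edgeR and DESeq2 did not call it, while limma on equally weighted cells did. With 1 virgin sample and the other 8 near 0, the limma call does not measure variation between virgin samples. SLC22A2 also reached 1 CPM through the virgin sample alone.

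Summed over these 10 uptake genes alone, the level was 325 CPM in the virgin sample, 464, 381, 351, 426, 354 and 426 CPM over the 6 gestation stages, and 425 and 372 CPM on lactation days 7 and 15. The sum counted SLC22A18 and SLC22A23, a little studied and an orphan family member, as uptake genes. These 2 genes averaged 102 and 28.2 CPM in lactation and 81.4 and 22.7 CPM in gestation. SLCO2B1 made up 51.1% to 67.7% of the uptake sum, with the lowest shares in the lactation samples. The lactation mean of the uptake sum was 399 ± 37.9 CPM (SD, n = 2) and the gestation mean 400.5 ± 45.5 CPM (SD, n = 6), a difference smaller than the spread in gestation. With library size alone in place of TMM the means were 437 and 384 CPM, and this scaling raised the median log2 difference of all 20263 genes tested between lactation and gestation to 0.18, against -0.01 with TMM.

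**Figure D2:**
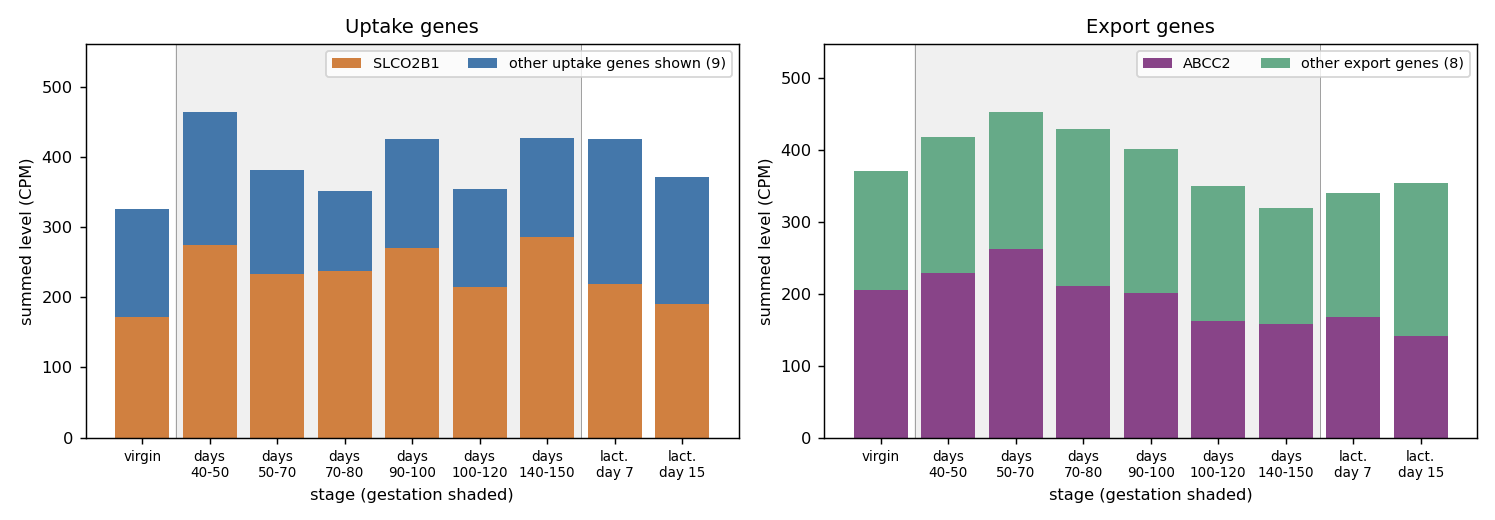
Summed level in CPM of the 10 uptake genes described (left) and the 9 export genes (right) in each of the 9 stages, with 1 sample a stage and so no error bars. The lower part of each bar is SLCO2B1 or ABCC2; the uptake sum is lowest in the virgin sample at 325 CPM (with library size alone it is lowest at days 100 to 120), and the export sum stays between 319 and 453 CPM.

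Export was led by ABCC2 (MRP2), the canalicular pump that secretes bilirubin glucuronide and other conjugates into bile. Its median was 21.7 CPM per kilobase, followed by ABCC6 at 15.4. By stage, ABCC2 was at 205 CPM in the virgin sample, at 229, 262, 211, 201, 162 and 158 CPM over the 6 gestation stages in order, and at 168 and 142 CPM on lactation days 7 and 15. Days 50 to 70 were highest and lactation day 15 lowest (days 100 to 120 with library size alone), and 98.7% to 100% of thinned cells had reads in each of the 9 samples. The slope over gestation was -0.72 log2 units per 100 days (SE 0.24; edgeR adjusted p = 0.618), which did not pass. The slope of ABCB10 (-0.55, SE 0.21, edgeR adjusted p = 0.709), a transporter of the mitochondrial inner membrane, did not pass either.

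ABCC6 (MRP6), a sinusoidal transporter needed for ATP release from hepatocytes, was lower in lactation than in every gestation sample. It stood at 64.2 CPM in the virgin sample, at 114, 90.7, 104, 104, 67.0 and 80.2 CPM over the 6 gestation stages in order, and at 51.9 and 43.3 CPM on lactation days 7 and 15. The means were 47.6 ± 6.10 CPM in lactation (SD, n = 2) and 93.2 ± 17.4 CPM in gestation (SD, n = 6), and the virgin sample was below the gestation samples too with TMM, though not with library size alone, where it was at 68.0 CPM and days 100 to 120 at 61.6 CPM. The log2 difference between lactation and gestation was -0.97 (SE 0.23). edgeR did not call it (adjusted p = 0.174) and DESeq2 did (adjusted p = 0.00481). ABCC6 is 1 of 10 of the 27 members that overlap another gene in the RefSeq annotation, and whether the counting used strand is not stated. The others include SLC22A7 with CRIP3, SLC22A15 with MAB21L3, ABCC10 with DLK2 and, with genes that have no symbol beyond a locus number, SLCO2A1 and SLCO2B1.

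ABCC3 (MRP3), the sinusoidal pump that returns glucuronides and bile acids to blood, showed the widest spread among the export genes, with a 52.1-fold range over the stages. It stood at 0.800 CPM in the virgin sample, at 3.89, 2.88, 2.39, 1.29, 7.35 and 1.55 CPM over the 6 gestation stages in order, and at 7.82 and 41.7 CPM on lactation days 7 and 15. Both lactation samples were above all gestation samples, though day 7 lay just above days 100 to 120, and day 15 was 5.34-fold the next highest sample. Thinned cells with reads made up 5.41% of virgin cells, 12.8%, 12.7%, 12.7%, 9.86%, 13.8% and 8.01% of cells over the 6 gestation stages, and 23.1% and 76.0% of cells on lactation days 7 and 15. On day 15 the cell with most reads held 2.91% of them and the median over all cells was 29.6 CPM, whereas that median was 0 CPM in the other 8 samples. Without that cell, a setting chosen after seeing the data, the level was 40.5 CPM. Lactation was 2.94 above gestation on the log2 scale (SE 0.63), which edgeR did not call (adjusted p = 0.145) and DESeq2 did (adjusted p = 0.00262). Without day 15 the difference was 1.28 (edgeR adjusted p = 0.657), and without day 7 it was 3.69 (edgeR adjusted p = 0.0678).

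Against the virgin sample, which was the lowest for ABCC3, lactation was 4.95 higher on the log2 scale (SE 1.38), not called by edgeR (adjusted p = 0.907) and called by DESeq2 (adjusted p = 0.00153). It was 3.29 without day 15 and 5.70 without day 7 (edgeR adjusted p = 0.739 and 0.478). The hepatocyte markers were lower and the neutrophil markers higher in the same lactation samples, with the sums given above. The 12 periportal markers were lower as well, at 7035 and 7535 CPM on lactation days 7 and 15, 10035 to 12546 CPM in gestation and 9681 CPM in the virgin sample. The 10 pericentral markers summed to 9012 and 17979 CPM on lactation days 7 and 15, with day 15 the highest of the 9 samples. They summed to 7440 to 15136 CPM in gestation and 7961 CPM in the virgin sample. The part of these zonal markers in the result was not tested. Without cells that had PTPRC reads, the difference between lactation and gestation was 2.92 for ABCC3 and 5.29 for SLCO4A1 (edgeR adjusted p = 0.184 and 0.0923). The bile duct markers, a cell type known for ABCC3, summed to 0.529 and 1.35 CPM in the lactation samples, 1.07 to 3.96 CPM in gestation and 1.86 CPM in the virgin sample.

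**Figure D3:**
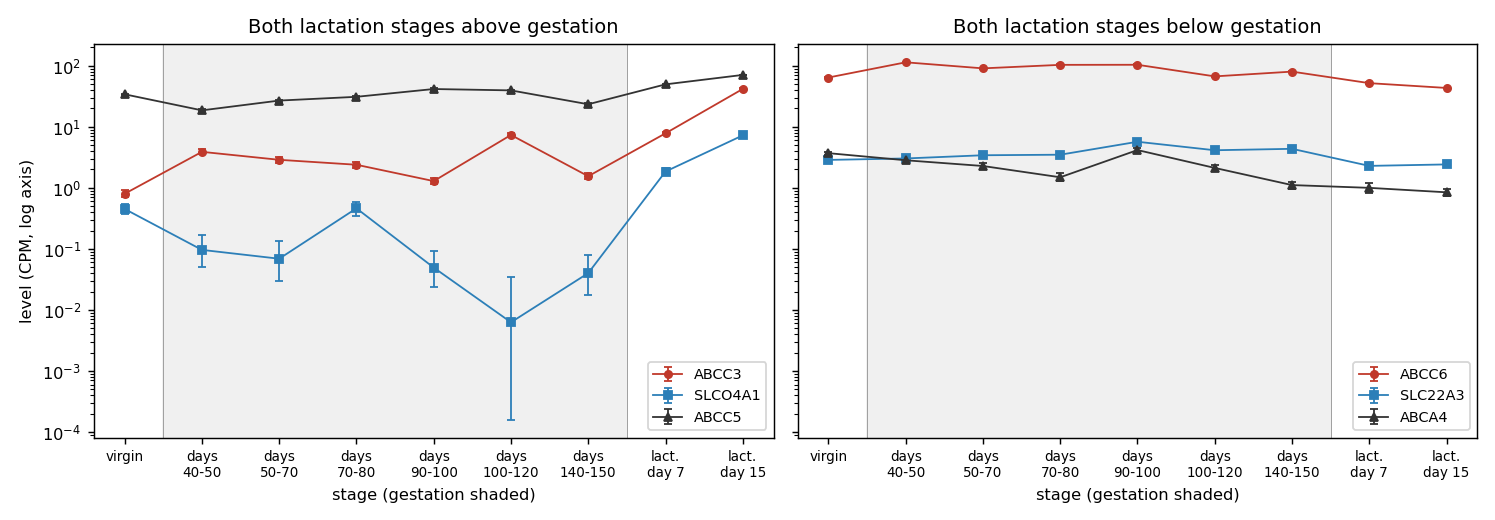
Level in CPM (log axis) by stage of the 3 genes whose lactation samples both lay above all gestation samples (left) and the 3 whose lactation samples both lay below (right). Points are stages and bars are 95% Poisson intervals of the read count. ABCC3 reaches 41.7 CPM and SLCO4A1 7.24 CPM on lactation day 15; ABCA4 no longer separates with library size alone in place of TMM.

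ABCC5 (MRP5), an exporter of cyclic nucleotides, was the third gene with both lactation samples above gestation. Its levels were 34.1 (virgin), 18.6, 26.9, 31.0, 41.6, 39.5 and 23.4 (gestation, early to late) and 49.6 and 70.8 (lactation days 7 and 15) CPM. The means were 60.2 ± 15.0 CPM in lactation (SD, n = 2) and 30.2 ± 9.02 CPM in gestation (SD, n = 6), and the virgin sample lay within the gestation range. The log2 difference was 1.00 (SE 0.28; edgeR adjusted p = 0.276), which did not pass. Thinned cells with reads made up 79.2% of virgin cells, 49.4%, 65.5%, 78.9%, 74.1%, 67.9% and 67.3% of cells over the 6 gestation stages, and 83.1% and 91.1% of cells on lactation days 7 and 15.

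ABCG2 (BCRP), which secretes urate and drugs into bile and riboflavin into milk, was at 26.1 CPM in the virgin sample, at 20.7, 32.1, 23.5, 25.9, 41.5 and 33.5 CPM over the 6 gestation stages in order, and at 19.4 and 21.2 CPM on lactation days 7 and 15. Both lactation samples were at the low edge, and the first gestation stage was between them with TMM and below both with library size alone. ABCB1 (P-glycoprotein), the canalicular pump for lipophilic drugs, was at 14.1 CPM in the virgin sample, at 16.7, 27.4, 35.0, 15.6, 16.4 and 13.1 CPM over the 6 gestation stages in order, and at 9.79 and 19.2 CPM on lactation days 7 and 15. It peaked at days 70 to 80, where 92.5% of thinned cells had reads, against 42.9% to 70.9% in the other 8 samples.

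ABCC11 (MRP8), known in human for its part in sweat and earwax secretion, ran at 23.8 CPM in the virgin sample, at 12.6, 8.79, 19.8, 9.13, 14.1 and 6.60 CPM over the 6 gestation stages in order, and at 29.5 and 14.7 CPM on lactation days 7 and 15. It was highest on lactation day 7, but day 15 lay inside the gestation range. The log2 difference between lactation and gestation was 0.90 (SE 0.38; edgeR adjusted p = 0.497), 0.31 without day 7 and 1.32 without day 15 (edgeR adjusted p = 0.909 and 0.451). ABCC11 overlaps LONP2 in the RefSeq annotation. ABCC10, a drug exporter, ran at 1.75 (virgin), 1.61, 1.13, 1.57, 1.88, 1.14 and 1.84 (gestation, early to late) and 2.23 and 1.09 (lactation days 7 and 15) CPM. ABCC1 (MRP1), a pump for glutathione conjugates, ran at 0.797 (virgin), 0.939, 0.810, 1.07, 0.440, 0.514 and 1.20 (gestation, early to late) and 1.31 and 0.361 (lactation days 7 and 15) CPM. Neither separated the phases. ABCC1, whose highest value was 1.31 CPM, was the member just inside the 1 CPM limit, and ABCA13 (0.767 CPM) and SLCO3A1 (0.765 CPM) were just outside. The other members under 1 CPM in all samples included the channel regulators ABCC8 and ABCC9, the export genes ABCB5 and ABCC12 and the sterol transporters ABCG1 and ABCG4. Among those 26 members, SLC22A13 reached 0.58 CPM, the kidney anion carrier SLC22A8 reached 0.454 CPM, SLCO1A2 reached 0.133 CPM, and SLC22A20 had 0 reads.

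For the summed export level, the virgin sample had 370.2 CPM, the 6 gestation samples in order had 418, 453, 429, 400.4, 349 and 319 CPM, and lactation days 7 and 15 had 339 and 354 CPM. ABCC2 made up 40.0% to 57.9% of it. The lactation mean was 347 ± 10.4 CPM (SD, n = 2) and the gestation mean 395 ± 50.8 CPM (SD, n = 6), a difference within the gestation spread, and with library size alone both means came to 380.1 and 379.8 CPM.

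The most abundant lipid transporters varied little between stages. ABCA10, whose substrate is not well known, was at 128 CPM in the virgin sample, at 158, 118, 175, 189.6, 162 and 132 CPM over the 6 gestation stages in order, and at 169.8 and 147 CPM on lactation days 7 and 15. ABCA1, which loads cellular cholesterol onto apolipoprotein A-I, was at 69.6 CPM in the virgin sample, at 63.8, 69.8, 58.5, 59.9, 51.9 and 51.6 CPM over the 6 gestation stages in order, and at 65.3 and 46.3 CPM on lactation days 7 and 15. Each varied at most 1.60-fold over the 9 samples. ABCA5, a lysosomal family member, was at 3.36 (virgin), 4.74, 3.47, 1.79, 3.69, 2.47 and 4.71 (gestation, early to late) and 4.61 and 5.63 (lactation days 7 and 15) CPM. ABCA3, known for packing surfactant lipid in lung, was at 5.91 (virgin), 3.49, 3.57, 2.13, 2.37, 1.85 and 2.91 (gestation, early to late) and 3.62 and 3.40 (lactation days 7 and 15) CPM. The virgin sample was the highest for ABCA3, and gestation was -1.12 relative to it on the log2 scale (SE 0.38; edgeR adjusted p = 1), which did not pass. ABCA4, a retinoid transporter of photoreceptors, ran between 0.845 and 4.16 CPM and had both lactation samples below gestation (log2 difference -1.34, SE 0.51; edgeR adjusted p = 0.433), but not with library size alone.

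Of the organelle ABCB genes, ABCB10 was at 26.3 CPM in the virgin sample, at 36.0, 38.4, 33.0, 30.8, 30.2 and 25.6 CPM over the 6 gestation stages in order, and at 27.6 and 33.9 CPM on lactation days 7 and 15. It was highest at days 50 to 70 (on lactation day 15 with library size alone) and lowest at days 140 to 150. ABCB8 (3.12 to 4.71 CPM), also of the mitochondrial inner membrane, varied as little, at most 1.51-fold over the 9 samples. ABCB6, a transporter linked to porphyrins, was at 10.3 CPM in the virgin sample, at 11.8, 14.3, 16.5, 13.8, 13.4 and 9.51 CPM over the 6 gestation stages in order, and at 16.1 and 25.6 CPM on lactation days 7 and 15. Lactation day 15 was the highest sample, and day 7 lay inside the gestation range with TMM and, at 17.5 CPM against at most 17.3 CPM, just above it with library size alone. The log2 difference between lactation and gestation was 0.66 (SE 0.23; edgeR adjusted p = 0.4), and 0.28 without day 15 (edgeR adjusted p = 0.775). ABCB6 overlaps ZFAND2B in the annotation.

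Across all genes, 0 of the 44 members tested differed between lactation and gestation at an adjusted p under 0.05 in edgeR, where 0.0592% of all 20263 genes did. At an unadjusted p under 0.05 there were 8 of the 44 members tested (ABCA4, ABCB6, ABCC11, ABCC3, ABCC5, ABCC6, SLC22A3 and SLCO4A1), against 9.4% of all genes. DESeq2 called 3 (ABCC3, ABCC6 and SLCO4A1), against 3.21% of genes, and limma, where each cell weighs the same, called 0, against 0.192%. Both lactation samples were above all gestation samples for 5 of the 44 (ABCC3, ABCC5, SLCO4A1 and, under 1 CPM, ABCB9 and SLC22A14; background 6.14%) and below them for 3 (ABCA4, ABCC6 and SLC22A3; background 4.86%). With library size alone these counts were 9 (ABCA3, ABCA5, ABCB6 and SLC22A18 were added) and 2 (without ABCA4), beside 12.7% and 2.68% of all genes. SLCO4A1 reached 1 CPM in the lactation samples alone, so its place among the genes described follows from that pattern. The median log2 difference of the 44 was 0.19, with 25 higher and 19 lower in lactation, beside -0.01 for all genes (with library size alone 0.37, 28 higher and 16 lower, beside 0.18).

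Between gestation and virgin, edgeR called 0 members (background 0.00494%), DESeq2 0 (0.686%) and limma 1, SLC22A2 (0.434%), with 3 at an unadjusted p under 0.05 (ABCA3, SLC22A2 and SLCO2B1; 4.45%). Between lactation and virgin, edgeR called 0 members (background 0%), DESeq2 1, ABCC3 (0.657%), and limma 1, SLC22A2 (0.207%), with 5 at an unadjusted p under 0.05 (ABCA4, ABCB6, ABCC3, SLC22A18 and SLC22A2; 4.94%). These comparisons share the virgin sample. The virgin sample was the lowest of 9 for 3 of the 44 (ABCC3, SLC22A18 and SLCO2B1; background 8.33%) and the highest for 2 (ABCA3 and SLC22A2; background 9.57%). With library size alone it was lowest for 2 (ABCC3 and SLCO2B1; 5.7%) and highest for 4 (ABCA1, ABCA3, ABCB8 and SLC22A2; 11.7%). SLC22A2 reached 1 CPM in the virgin sample alone, so its place among the genes described follows from that pattern. For SLC22A18 lactation was 0.70 above virgin on the log2 scale (SE 0.30; edgeR adjusted p = 0.965).

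For the trend over the 6 gestation samples, edgeR called 0 of 39 members (background 0.0336%), DESeq2 1, SLCO2A1 (adjusted p = 0.0408; background 1.88%), and limma 0 (background 0.00494%). At an unadjusted p under 0.05 there were 4 of the 39 (ABCB10, ABCC2, SLCO2A1 and, under 1 CPM, SLC22A17; background 6.62%). The median slope of the 39 was -0.21 log2 units per 100 days, with 18 upward and 21 downward, beside 0.01 for all 17848 genes tested.

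Across birth, lactation day 7 and gestation days 140 to 150 had 1 sample on each side and no test. Of the 25 members of 1 CPM or more in one of them, 5 were at least 2-fold higher on day 7 (background 8.62%) and 1 was lower (background 7.09%). SLCO4A1 was at 1.85 CPM (95% Poisson interval 1.62 to 2.11) on day 7 and 0.0401 CPM (0.0173 to 0.0791) at days 140 to 150, a ratio of 46.1 that rests on 8 reads at term. ABCC3 stood at 7.82 against 1.55 CPM, ABCC11 at 29.5 against 6.60 CPM, SLC22A7 at 55.6 against 25.3 CPM and ABCC5 at 49.6 against 23.4 CPM. SLCO2A1 was lower, at 5.02 CPM on day 7 and 10.5 CPM at term. On lactation day 15, ABCC3 and SLCO4A1 were 5.34-fold and 3.91-fold the level of day 7 (2 of 25, background 7.02%), whereas ABCC1, ABCC10, ABCC11 and SLC22A7 were at least 2-fold lower than on day 7 (4 of 25, background 9.91%).

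Across cells, 9 of the 27 genes had reads in at least 50% of thinned cells in all 9 samples. The 4 with reads in over 95% of cells throughout were SLCO2B1, ABCC2, ABCA10 and SLC22A18. ABCC3 and SLCO4A1 reads on lactation day 15 were in partly the same cells. Of 495 thinned cells, 376 had ABCC3 reads, 156 SLCO4A1 reads and 127 both, so that 33.8% of the cells with ABCC3 and 24.4% of those without had SLCO4A1. For SLCO2A1 the shares were 33.0% and 22.7%. These are shares of cells of 1 sample, and no test was made. In all cells at full depth, ABCC3 reads were in 28.0% and 77.6% of cells on lactation days 7 and 15, SLCO4A1 reads in 8.13% and 35.6%, SLCO2A1 reads in 40.2% at days 140 to 150, and SLC22A2 reads in 19.0% of virgin cells.

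**Figure D4:**
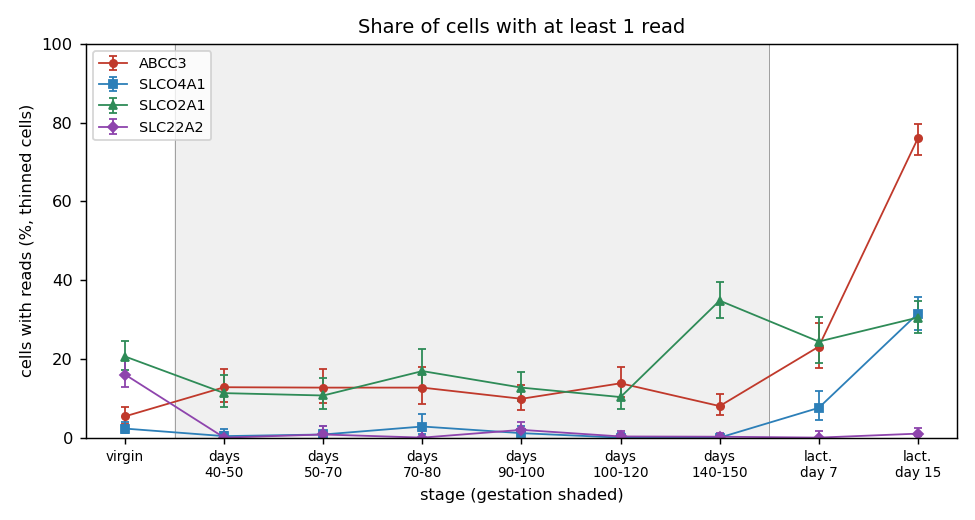
Share of thinned cells with at least 1 read, in percent, by stage for 4 genes. Points are stages with 1 sample each, and bars are 95% Clopper-Pearson intervals that cover counting error only. ABCC3 reaches 76.0% and SLCO4A1 31.5% of cells on lactation day 15, SLCO2A1 34.8% at gestation days 140 to 150, and SLC22A2 16.0% in the virgin sample.

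Across the liver lobule, 3 of 16 members of 5 CPM or more on average were higher in the pericentral-scored cells in all 9 samples (background 3.45% of 8261 genes), and 0 of 16 lower in all 9 (background 4.01%). Cells of each sample had been split at the median of a score, the mean log2(CPM + 1) of 10 pericentral minus 12 periportal markers, so the sides are ranges of a score and not cell types. Between 28 and 83 cells of a sample lay within 0.25 of the cut. ABCC5 had a median log2 ratio of pericentral over periportal cells of 0.98 (0.54 to 1.66 over the 9 samples). ABCA1 had 0.45 (0.22 to 0.56) and ABCC2 0.31 (0.03 to 0.50).

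The opposite lean was seen in 8 of 9 samples for ABCC11 (median -0.46), ABCB10 (-0.28) and SLC22A7 (-0.23). At the same looser limit, ABCA10 was higher in the pericentral-scored cells (median 0.14). The share of all genes at 8 of 9 samples was not computed. ABCC3 had no steady side, with 4 samples higher and 5 lower in the pericentral cells. Splitting cells by reads of GLUL alone, glutamine synthetase of the perivenous rim, left 0 of the 16 members with 1 direction in all 9 samples. The share of all genes was not computed for this split, so that count has no background. GLUL is also a pericentral marker of the score, so this split is not independent of it. The sides of the GLUL split were unequal and shifted between samples. There were 66 cells with and 199 without GLUL reads at days 40 to 50, and 275 with and 220 without on lactation day 15. The cells with GLUL reads were therefore not a rim of constant size. ABCC5, ABCC2 and ABCA1 were then higher in 8 of 9 samples each, as were ABCA10 and ABCB6. ABCC11 turned to higher in 6 of 9 (median 0.09), while ABCB10 was higher in 3 (median -0.05) and SLC22A7 in 2 (median -0.07). Of 22 partner genes at 5 CPM or more, AHR (1.21) and NR1I3 (0.35) were higher and SLC51B (-0.80), ABCB11 (-0.48), ABCG8 (-0.37) and PPARA (-0.34) lower in the pericentral-scored cells of all 9 samples. By GLUL reads, AHR stayed higher in 9 of 9 and SLC51B in 0 of 9, ABCB11 and ABCG8 were higher in 2 each, PPARA in 4, and NR1I3 turned to higher in 2 (median -0.04).

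**Figure D5:**
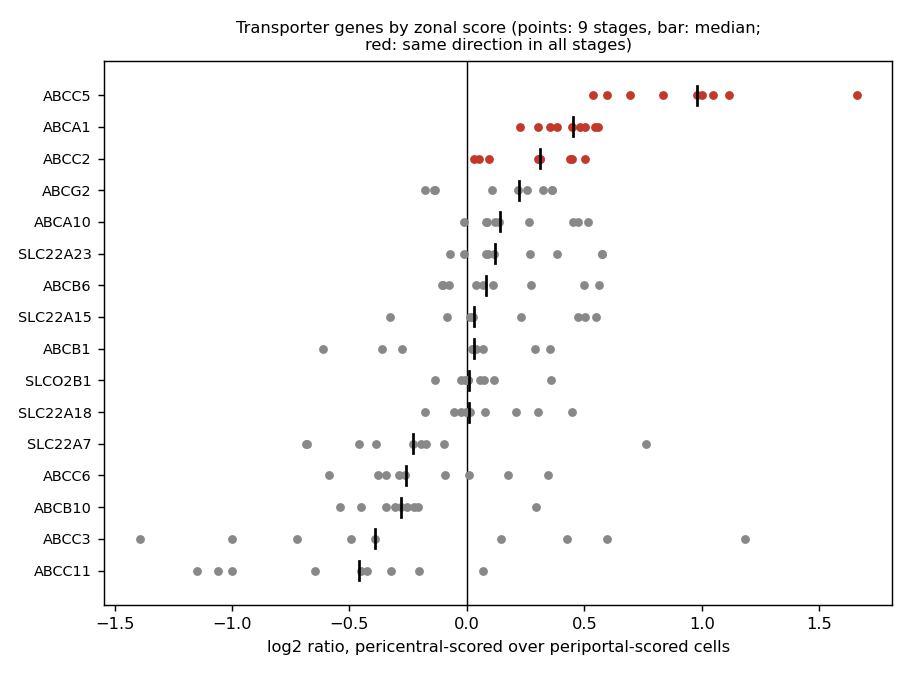
Log2 ratio of the level in the pericentral-scored cells over the level in the periportal-scored cells, for the 16 transporter genes of 5 CPM or more on average over the stages. Points are the 9 stages and the black bar is their median. Red genes (ABCC5, ABCA1 and ABCC2) lie to the right of 0 in all 9 stages.

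Between cells of a sample, 11 members of 20 CPM or more on average gave 55 pairs. The median Spearman correlation of log levels over the 9 samples was at most 0.13, for ABCA1 with ABCC2 (range -0.02 to 0.30) and ABCA10 with ABCC5 (range -0.01 to 0.24). ABCA1 with ABCC5 had 0.12 (range 0.06 to 0.28) and was above 0 in all 9 samples, as were 6 of the 55 pairs, beside 4.23% of all 8571870 pairs of 4141 genes, whose median was 0.02. Cells of 1 sample share its library and depth range, and these values are a description only.

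Of 26 partner and regulator genes set beside the transporters, 0 were called by edgeR between lactation and gestation (background 0.0592%), 4 had an unadjusted p under 0.05 (9.4%) and DESeq2 called 3 (SLC47A2, ABCG5 and ABCG8; 3.21%). SLC47A2, a proton-coupled exporter of organic cations, was at 2.76 and 12.3 CPM on lactation days 7 and 15 and at 0.263 to 1.10 CPM in gestation. ABCG8, the partner of ABCG5 in sterol secretion into bile, was at 19.8 and 18.5 CPM in the lactation samples and 33.7 to 58.2 CPM in gestation. For the slope over gestation edgeR called 1 of 25 (background 0.0336%), SLC22A5 (3.90 log2 units per 100 days, adjusted p = 0.0268), which DESeq2 called too (adjusted p = 1.27e-14). The edgeR call was lost when any gestation sample other than days 70 to 80 was left out (adjusted p 0.0554 to 0.371, the highest without days 140 to 150), and limma did not call the slope (adjusted p = 0.364). SLC22A5 stood at 3.26, 4.29, 4.31, 7.62, 15.2 and 46.6 CPM over the 6 gestation stages. ABCB11, the bile salt export pump, was at 273 and 257 CPM on lactation days 7 and 15, 240 to 487 CPM in gestation and 380 CPM in the virgin sample. At an unadjusted p under 0.05 the slope had 8 of 25 partners (SLC51B, ATP8B1, ATP7B, SLC22A5, ABCB11, NR1I2, AHR and NR0B2; background 6.62%). Of these, AHR, a receptor for aromatic compounds, had -1.38 log2 units per 100 days (SE 0.34), which edgeR did not call (adjusted p = 0.364) and DESeq2 did.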

How the data were processed

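Single-cell RNA libraries of sheep hepatocytes were analysed as the whole-number read counts per gene and cell that the authors deposited, with no normalization. The submitters' processing notes name HISAT2 2.1.0, featureCounts 2.0.1 and Trimmomatic 0.39. Build, strand setting and any collapsing of molecular identifiers are not given in the sources used here. The other value used from the deposited table was the gene length, in bases, for levels per kilobase; what it spans is not stated. A table of normalized values contained nothing but NA and was left out. The 24 table entries that named no gene carried 0.474% of reads and stayed out of library sizes and tests.

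Counts were summed over all cells of a sample, and groups came from the sample labels. Tests were made in R 4.3.3 with edgeR 4.0.16 (TMM, filterByExpr, glmQLFit, glmQLFTest, Benjamini-Hochberg over all genes tested, threshold 0.05), with a term per phase over 9 samples, and a slope on the midpoint of the day range over 6 gestation samples. Since no separate animals are named, the p-values reflect no more than the spread between samples, which may be technical. The fits were also run on simulated counts, whose outcome is not given here and is not used as support. Alternatives were other scalings, no filter, DESeq2 1.42.0, limma 3.58.1 on mean log2(CPM + 1) per cell, the top cell or cells with PTPRC reads left out, and each sample left out. Intervals are exact 95% Poisson or Clopper-Pearson intervals and cover counting error only. Cells were thinned to 155164 reads for shares, the zonal score and the correlations between cells, which left out 341 of 3404 cells. Doublets were not called, since cells were picked singly. Zonal ratios used a pseudocount of 0.1 CPM. Other steps ran in Python 3.11.15 with SciPy 1.17.1, pandas 2.3.3, numpy 2.4.6 and matplotlib 3.10.9.

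Of the 55 members, 2 are not reported here. The other 53 symbols were all found in the RefSeq table of assembly ARS-UI_Ramb_v3.0, used for names and gene overlaps only. The members, the classes and the lists of partners and markers were chosen with earlier results of these data known. Among the members reported, values in every stage are given for those called by edgeR (0), the 8 uptake genes and up to 10 export genes with the highest mean, and 6 more with the largest range among those of 5 CPM or more; the others are given by range.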

Additional observations from a re-analysis of the deposited data

Results flagged for a closer look

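Among the 6 gestation samples, 3 of the 27 genes had 1 sample far from the other 5. The limit used flags about 1 in 20 groups of normally distributed values, which low read counts are not. The share of all genes flagged was not computed, so the count cannot be read as a result about the members. SLCO2A1 was at 10.5 CPM at days 140 to 150 and at 2.25 to 4.69 CPM in the other gestation samples. SLCO4A1 was at 0.462 CPM at days 70 to 80, with 54.2% of its reads in 1 cell, and at 0.00627 to 0.0963 CPM in the others. SLC22A2 was at 0.193 CPM at days 90 to 100 and at 0 to 0.069 CPM in the others, all below 1 CPM.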

How the results depend on the processing

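The 19 differences or slopes of members of 1 CPM or more with an unadjusted p under 0.05 were followed under 287 alternative values. The slope of SLC22A17, under 1 CPM, was not followed. Of the 287, 280 kept their direction and their side of the threshold, 7 kept their direction and passed it, and 0 reversed. The alternatives reused the samples that picked these 19, so the kept directions are no separate support. No share of all genes was computed. The edgeR count of 0 called members held in all 4 comparisons under library size alone, size factors of the DESeq2 kind, no filter, the top cell left out, cells with PTPRC reads left out and each sample left out (0 to 0). DESeq2 called 3 members between lactation and gestation, 1 between lactation and virgin and 1 for the slope, and limma called 1 between gestation and virgin and 1 between lactation and virgin; the cause was not tested. With library size alone, the mean uptake sum in lactation was 437 CPM in place of 399 CPM and the export sum 380.1 CPM in place of 347 CPM. Splitting cells by reads of GLUL, itself a marker of the score, left 0 of the 16 members with a single direction in all 9 samples, in place of 3. A limit of 5 CPM kept 21 of 27 genes. No paired analysis was possible because each stage was 1 sample and no replicate numbers link samples across phases. The lowest levels rest on few reads, as for SLCO4A1 and SLC22A2.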
